A study of Homo sapiens with 4 samples.

Results

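The metallothionein genes MT1E, MT1F, MT1G, MT1X and MT2A were followed in single-cell RNA sequencing of 2 established human cell lines treated with estrogen. The 5 genes were chosen by symbol, from 33540 features of the Ishikawa library and 33538 of the T-47D library. Each feature list held 12 metallothionein genes in all. Ishikawa is an endometrial adenocarcinoma line and T-47D a breast carcinoma line, and both respond to 17β-estradiol (E2), the main estrogen. Cultures of each line, all kept in hormone-depleted medium beforehand, received the DMSO vehicle (0 h) or 10 nM E2 for 2, 4 or 8 h. The cultures of a line were tagged with MULTI-seq barcodes, short oligonucleotides that mark the cells of a culture, then mixed and sequenced as 1 3' library per line. Each line and time point was thus 1 culture, so that no comparison below has a replicate check and no test was run. Intervals are exact 95% intervals and cover counting error only, not the spread between cells or cultures. Line and library cannot be told apart.

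After the cell limits of the study's methods, 776, 1480, 892 and 1465 Ishikawa cells were kept at 0, 2, 4 and 8 h, and 1525, 1207, 1341 and 553 T-47D cells. The summed unique molecular identifiers (UMIs, counts of distinct captured transcripts) ran from 12927799 to 33175309 per culture. Levels are given as CPM, the UMIs of a gene scaled to a total of 1000000 UMIs in the pooled cells of a culture. The labelled cell types were checked against their markers. All 4 epithelial markers passed 10 CPM in both lines, 5 of 6 breast luminal markers passed in T-47D, and 4 of 6 endometrial markers passed in Ishikawa, while 5 of the 6 endometrial markers had 0 UMIs in T-47D. The breast luminal list was not absent from Ishikawa, where 2 of 6 passed. Its sum there ran from 428 to 482 CPM, above the 313 to 368 CPM of the endometrial list. In T-47D the luminal sum ran from 5890 to 8250 CPM. Of the 7 markers of fibroblasts, blood and endothelium, 0 passed in T-47D and only COL1A1 passed in Ishikawa, where the summed list ran from 22.4 to 31.9 CPM. The 2 libraries shared 80 barcodes, of which 5 were among the kept cells of both.

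Metallothioneins are small, cysteine-rich proteins that bind zinc, copper and cadmium. They buffer free zinc and take up oxidants. Their transcription is switched on by metals through MTF1, a zinc-sensing factor that binds metal response elements in their promoters, and also by glucocorticoids and by stress. The human genes lie in a cluster of closely related copies.

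All 5 genes lie on chromosome 16, within 75.6 kb of each other (GRCh38.p14, RefSeq). In order of position, MT2A (ENSG00000125148) spans chr16:56608584-56609497, MT1E (ENSG00000169715) chr16:56625781-56627112, MT1F (ENSG00000198417) chr16:56657959-56659303, MT1G (ENSG00000125144) chr16:56666730-56668065 and MT1X (ENSG00000187193) chr16:56682470-56684196. All are annotated as protein-coding. How reads that fit more than 1 of these similar genes were counted is not stated in the labels or the methods, and each count is uncertain to that extent. UMIs were not divided by gene length, and levels of different members are not ranked against each other.

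The RefSeq promoter table held 2 of the 5 members, MT2A and MT1X, the pair with the strongest shared variation between Ishikawa cells. The windows, from 250 bases before to 50 bases after the start of each gene, are shown so that their metal response elements can be compared. Both are written 5′ to 3′ on the plus strand of GRCh38.p14, MT2A from chr16:56608334-56608633 and MT1X from chr16:56682220-56682519. Capitals mark the core of the element, TGCACNC or TGCGCNC, on either strand.
MT2A: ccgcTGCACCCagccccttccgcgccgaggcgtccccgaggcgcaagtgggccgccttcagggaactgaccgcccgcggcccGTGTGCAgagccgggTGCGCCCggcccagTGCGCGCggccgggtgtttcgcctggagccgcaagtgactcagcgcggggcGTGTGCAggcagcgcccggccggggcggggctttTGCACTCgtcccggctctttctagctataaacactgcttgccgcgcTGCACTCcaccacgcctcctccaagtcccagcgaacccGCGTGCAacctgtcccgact
MT1X: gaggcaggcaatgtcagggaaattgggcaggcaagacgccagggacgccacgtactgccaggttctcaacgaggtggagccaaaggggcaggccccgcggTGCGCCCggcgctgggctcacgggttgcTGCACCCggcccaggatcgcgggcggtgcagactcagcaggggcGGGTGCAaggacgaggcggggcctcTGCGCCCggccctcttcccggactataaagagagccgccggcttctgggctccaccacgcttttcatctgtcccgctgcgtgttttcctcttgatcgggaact

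The MT2A window held 8 matches, 5 on the strand of the gene and 3 on the other, and the MT1X window held 4, 3 on the strand of the gene and 1 on the other. Of the 35116 promoters in the table, 29.6% held at least 1 match, 0.601% held at least 4 and 7 held at least 8. Among metallothionein genes outside the 5, MT1H also held 8, though it had 0 UMIs in the kept cells of both lines. MT1B and MT4 held 3 each. A match began 54 bases before the start in MT2A and 53 bases before it in MT1X. Neither window held the exact letters of the estrogen response element, GGTCANNNTGACC, which were in 20 promoters of the table (0.0570%). Neither held those of the glucocorticoid response element, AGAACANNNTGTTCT, which were in 1 promoter (0.00285%). With matches this rare in all promoters, their absence here cannot show whether either gene has such an element. Imperfect matches and bases outside the windows were not searched. All of these counts are matches of letters, and binding was not measured.

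Of the 5 genes, 3 were measured in both lines and 2 were at or near 0. MT1E had 0 UMIs in the kept Ishikawa cells and 1 UMI in the kept T-47D cells, and MT1G had 0 in both. A count of 0 allows a level of up to 3 UMIs of a culture's total, which is 0.0968 to 0.196 CPM for Ishikawa cultures and 0.0904 to 0.232 CPM for T-47D cultures. Over every barcode of each matrix, including those without a tag, MT1E had 1 UMI among 14985 Ishikawa barcodes and 3 among 18188 T-47D barcodes, while MT1G had 1 and 0. The results below therefore rest on MT1F, MT1X and MT2A, the members that passed a mean of 10 CPM over the 4 time points in each line.

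To ask whether E2 altered the metallothioneins, each time point was compared with vehicle in the same line. In T-47D all 3 measured members fell by more than 1.5-fold at 8 h, and at 2 and 4 h none did. MT2A, a member expressed in most human tissues, went from 755 CPM (746 to 765) at 0 h to 653 (644 to 663) at 2 h, 660 (651 to 669) at 4 h and 416 (405 to 427) at 8 h. MT1F went from 72.3 CPM (69.5 to 75.3) to 59.9 (57.0 to 63.0), 63.2 (60.3 to 66.1) and 37.7 (34.5 to 41.3). MT1X went from 25.3 CPM (23.6 to 27.0) to 21.1 (19.4 to 23.0), 19.1 (17.6 to 20.8) and 11.2 (9.46 to 13.2). Each gene was highest with vehicle and lowest at 8 h, and the 8 h intervals overlapped no other.

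Against vehicle, the 8 h level was 1.81-fold lower for MT2A (ratio 0.551, 0.535 to 0.568), 1.92-fold lower for MT1F (0.522, 0.472 to 0.575) and 2.25-fold lower for MT1X (0.444, 0.370 to 0.530). On the scale of log2(CPM + 1) these were changes of -0.86, -0.92 and -1.10. Among the 7440 T-47D genes of at least 10 CPM, 0.726% were lower by at least 1.5-fold at 8 h and 2.34% higher, and the median change was 0.0063. Only 20 genes had a lower value than MT2A, 12 than MT1F and 9 than MT1X. The drop came mostly after 4 h. From 2 to 4 h the ratios were 1.01 for MT2A (0.9895 to 1.03), 1.05 for MT1F (0.985 to 1.13) and 0.904 for MT1X (0.803 to 1.02), all within counting error, and from 4 to 8 h they were 0.631, 0.598 and 0.587.

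At the earlier times of T-47D the values were short of the fold rule. At 2 h the log2 changes were -0.21 for MT2A, -0.27 for MT1F and -0.25 for MT1X, where 0.417% of genes were lower and 1.22% higher by 1.5-fold. At 4 h they were -0.19, -0.19 and -0.38, where 0.363% of genes were lower and 1.33% higher. All 6 of these values lay below 0, and their ratios excluded 1 within counting error, which leaves out the spread between cells. With cell values capped at the 99th percentile of the line, the 2 h change of MT1X was -0.055. The 4 h value of MT1X depended on which cells were taken. In cells with no UMI of the proliferation genes TOP2A or MKI67 it was -0.052, with a ratio to vehicle of 0.962 (0.828 to 1.12). In the tertile of cells with the highest mitochondrial share MT1X was at 9.94 CPM with vehicle and 15.2 CPM at 4 h, a ratio of 1.53 (1.20 to 1.97). The highest single T-47D cell at 4 h had 43 MT1X UMIs, and whether it lay in this tertile was not examined.

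In Ishikawa no member passed the fold rule at any time, and each of the 3 genes had its highest value at 2 h and its lowest at 8 h. MT2A had 443 CPM (432 to 453) at 0 h, 462 (454 to 470) at 2 h, 382 (373 to 391) at 4 h and 342 (336 to 349) at 8 h. MT1X had 273 CPM (265 to 281), 298 (292 to 304), 252 (246 to 260) and 211 (206 to 216). MT1F had 51.03 CPM (47.5 to 54.7), 53.7 (51.1 to 56.4), 47.1 (44.1 to 50.3) and 37.6 (35.4 to 39.8). The 8 h interval of each gene lay below the other 3, and for MT1F the 0 h interval overlapped those of 2 and 4 h.

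At 8 h the log2 changes in Ishikawa were -0.37 for MT2A (ratio 0.774, 0.750 to 0.798), -0.37 for MT1X (0.773, 0.744 to 0.804) and -0.43 for MT1F (0.736, 0.672 to 0.807). Of 7885 genes, 0.469% were lower by at least 1.5-fold at this time and 0.812% higher, and 229, 230 and 110 genes had a lower value than MT2A, MT1X and MT1F. The 3 members were thus in the lower tail of all genes but short of the rule. At 2 h the changes were 0.062, 0.13 and 0.073, and only for MT1F did the ratio include 1, at 0.966 to 1.15. At that time 0.659% of genes were lower and 0.786% higher by 1.5-fold. At 4 h the changes were -0.21, -0.11 and -0.11 (0.621% lower and 0.634% higher). The plot of levels by time shows both courses.

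**Figure D1:**
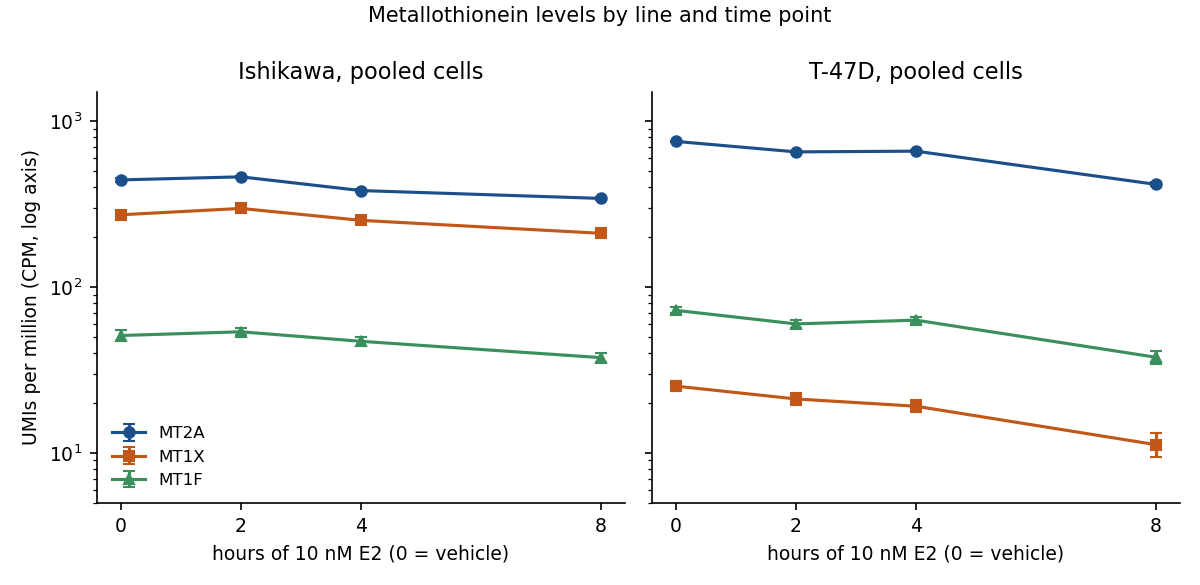
Level of MT2A, MT1X and MT1F in CPM (log axis) against hours of 10 nM E2, with 0 h the vehicle, for the pooled kept cells of Ishikawa (left) and T-47D (right); bars are exact 95% Poisson intervals, and each point is 1 culture. MT2A, MT1F and MT1X were all lowest at 8 h in both lines, with MT2A at 416 CPM in T-47D against 755 CPM with vehicle.

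**Figure D2:**
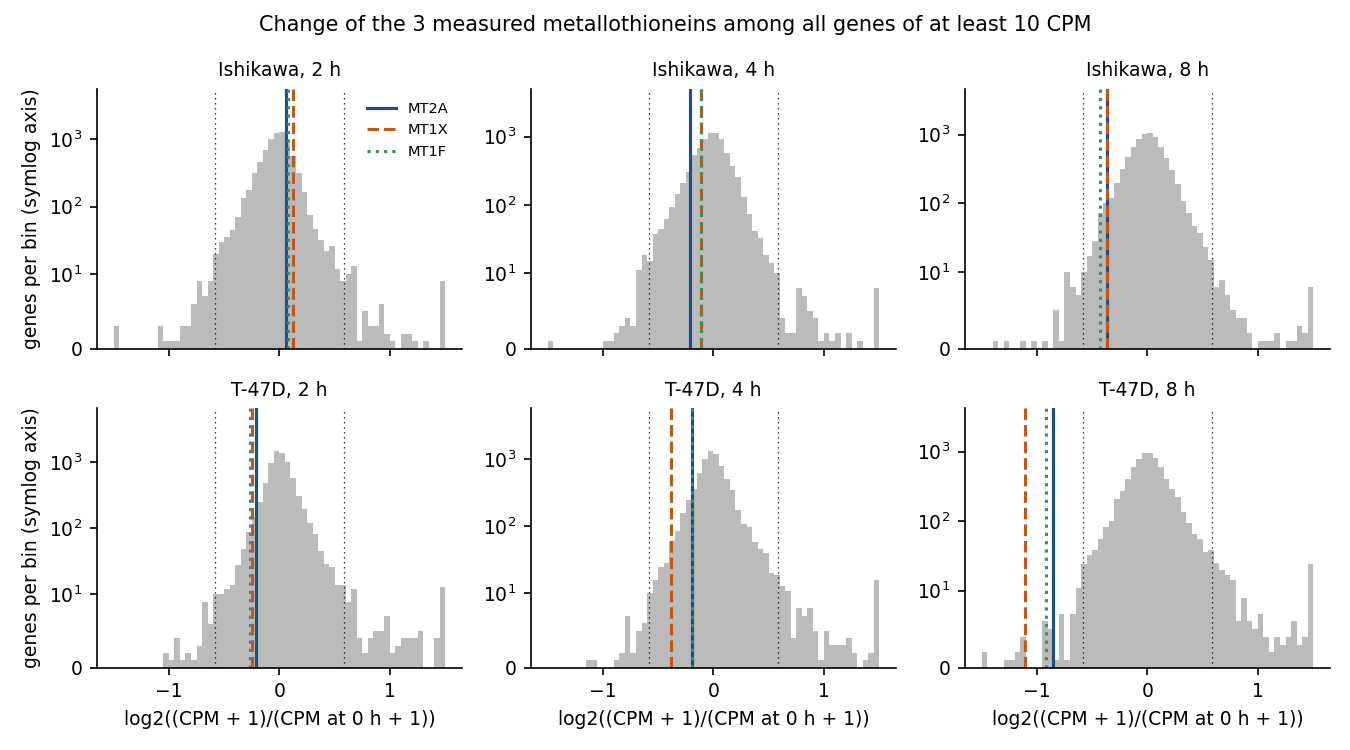
Number of genes (symlog axis) by change from vehicle on the log2(CPM + 1) scale, over 7885 Ishikawa and 7440 T-47D genes, at 2, 4 and 8 h; coloured lines mark the 3 measured metallothioneins, dotted lines the 1.5-fold limits, and the outermost bars also hold genes beyond the axis. In T-47D at 8 h the 3 lines lie in the lower tail, at -0.86, -0.92 and -1.10.

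The lines differed in which genes made up the metallothionein UMIs. With vehicle, MT1X was 10.8-fold higher in Ishikawa (273 against 25.3 CPM), while MT2A was 1.71-fold higher in T-47D (ratio 1.66 to 1.75) and MT1F 1.42-fold higher in T-47D (1.31 to 1.54). Thus 2 of the 3 members passed the fold rule, 1 in each direction. Between these lines that is a common event, since 23.7% of 8023 genes were higher in T-47D and 33% lower by at least 1.5-fold. The median of all genes was itself at -0.15 on the log2 scale for T-47D over Ishikawa. Relative to that median the values were 0.65 for MT1F, 0.92 for MT2A and -3.23 for MT1X, and with TMM scaling all 3 members passed, MT1F at 0.86. Against Ishikawa cells under 1% GFP, described further on, MT1F was at 0.16 and MT2A at 0.52, short of the rule. The share of all genes past the rule was not computed with TMM scaling or against those cells. The ratio of MT1X stayed large at every time, 14.1-fold at 2 h, 13.2-fold at 4 h and 18.8-fold at 8 h.

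Within a line each member's share of the family's UMIs moved by less than 2 percentage points over the 4 cultures. In Ishikawa MT1X gave 35.6%, 36.6%, 37.1% and 35.7% of the members' UMIs at 0, 2, 4 and 8 h, and MT1F gave 6.66%, 6.60%, 6.91% and 6.36%. In T-47D MT2A gave 88.6%, 89.0%, 88.9% and 89.5%, MT1F 8.48%, 8.16%, 8.51% and 8.12%, and MT1X 2.96%, 2.88%, 2.58% and 2.41%. The interval of the MT1X share in T-47D was 2.77 to 3.17% at 0 h and 2.04 to 2.83% at 8 h, which overlap. The summed members went from 766 to 591 CPM in Ishikawa (ratio 0.771, 0.753 to 0.789) and from 853 to 465 CPM in T-47D (0.545, 0.530 to 0.561).

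The share of cells with a UMI was lowest at 8 h for MT2A, MT1F and MT1X in both lines. Cells were thinned to 10000 UMIs each so that depth was equal, which left out 17, 37, 13 and 23 Ishikawa cells with fewer UMIs and no T-47D cell. In T-47D, MT2A was found in 92.9% of cells (91.4 to 94.1) at 0 h, 91.8% at 2 h, 92.1% at 4 h and 85.9% (82.7 to 88.7) at 8 h. MT1F was found in 37.9%, 34.1%, 36.7% and 24.4% of T-47D cells, and MT1X in 13.0%, 13.3%, 11.5% and 7.05%. For each of the 3 genes the 8 h interval lay below that of 0 h in T-47D.

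In Ishikawa MT2A was found in 85.8% of cells (83.1 to 88.2) at 0 h, 88.1% at 2 h, 86.5% at 4 h and 81.1% (79.0 to 83.1) at 8 h. MT1X was found in 74.4%, 82.1%, 75.8% and 68.6% of cells and MT1F in 35.7%, 36.8%, 32.9% and 28.1%. The thinned share was highest at 2 h for all 3 genes, but at 4 h the shares of MT2A and MT1X were above those of vehicle while their levels were below. Without thinning the MT2A shares of Ishikawa were 91.9%, 93.6%, 94.4% and 90.8%, highest at 4 h, while T-47D had 97.4% at 0 h and 94.6% at 8 h. Free RNA in the droplets can give UMIs to any cell, and neither library held a cell type known to lack these genes, so its part in the shares was not tested.

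**Figure D3:**
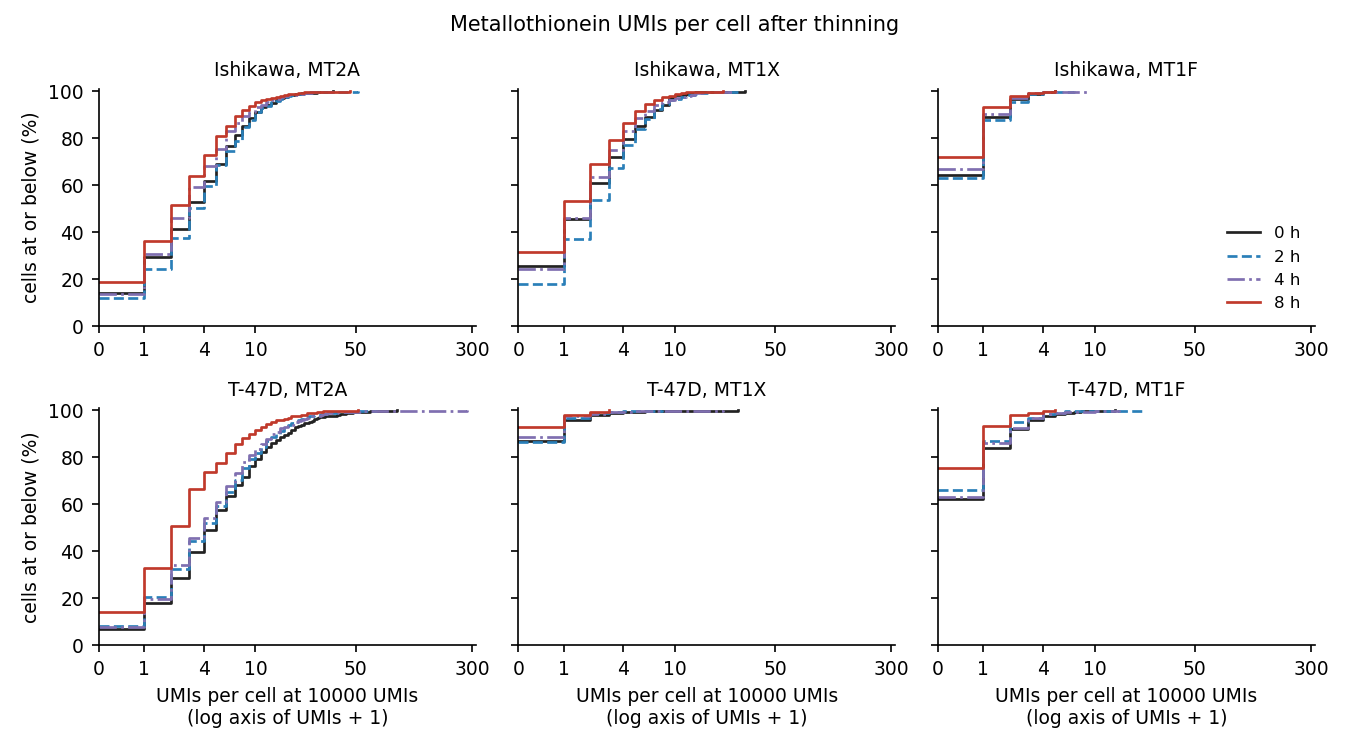
Percent of cells at or below a number of UMIs (log axis of UMIs + 1), after thinning each cell to 10000 UMIs, for MT2A, MT1X and MT1F in Ishikawa (top) and T-47D (bottom) at 0, 2, 4 and 8 h. The 8 h curve of MT2A in T-47D lies to the left of the others, with a median of 2 UMIs against 5 with vehicle, and all MT2A curves have a long right tail.

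The drop in T-47D was seen across the distribution of cells. For MT2A the cell at the 25th percentile had 2 UMIs in 10000 with vehicle and 1 at 8 h, the median cell 5 and 2, the 75th percentile 9 and 5 and the 95th 24 and 13.4. In Ishikawa the same points were 1 and 1, 3 and 2, 6 and 5, and 13.1 and 10. Cells with no MT2A UMI were 7.15% in T-47D with vehicle and 14.1% at 8 h, and 14.2% and 18.9% in Ishikawa. So low and high cells alike had fewer MT2A UMIs at 8 h in T-47D.

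The members varied strongly between cells of the same culture. Spread was measured by the coefficient of variation (CV, the SD over the mean) of each cell's UMIs scaled to 10000, adjusted for the mean of the gene. The top 20% of adjusted values in each bin of similar mean formed the High noise class. With vehicle all 3 members were in the High class in both lines, and the class held 20% of the 7943 Ishikawa genes and 20% of the 7393 T-47D genes. In Ishikawa the CV was 1.01 for MT2A and 1.11 for MT1X, where the bin median was 0.572, and 1.38 for MT1F, where it was 1.18. In T-47D it was 1.22 for MT2A (bin median 0.517), 1.68 for MT1F (0.907) and 4.43 for MT1X (1.56). Each CV was above its bin median, and that of MT1F in Ishikawa was close to the 90th percentile of its bin, 1.37.

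The excess spread was there at every time point. MT2A lay between the 96.5th and 97.0th percentile of its bin in Ishikawa and between the 98.4th and 99.3rd in T-47D, MT1X between the 95.6th and 97.4th and between the 97.9th and 99.9th, and MT1F between the 86.9th and 94.3rd and between the 97.6th and 98.99th. By the size of the residual, MT1X in T-47D with vehicle was number 16 of 7393 genes, MT2A number 71 and MT1F number 121. MT1F in Ishikawa at 8 h ranked lowest of the 24 values, as number 1112 of 7890. With every called Ishikawa cell, MT1F left the High class, at the 15.3rd percentile of its bin.

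**Figure D4:**
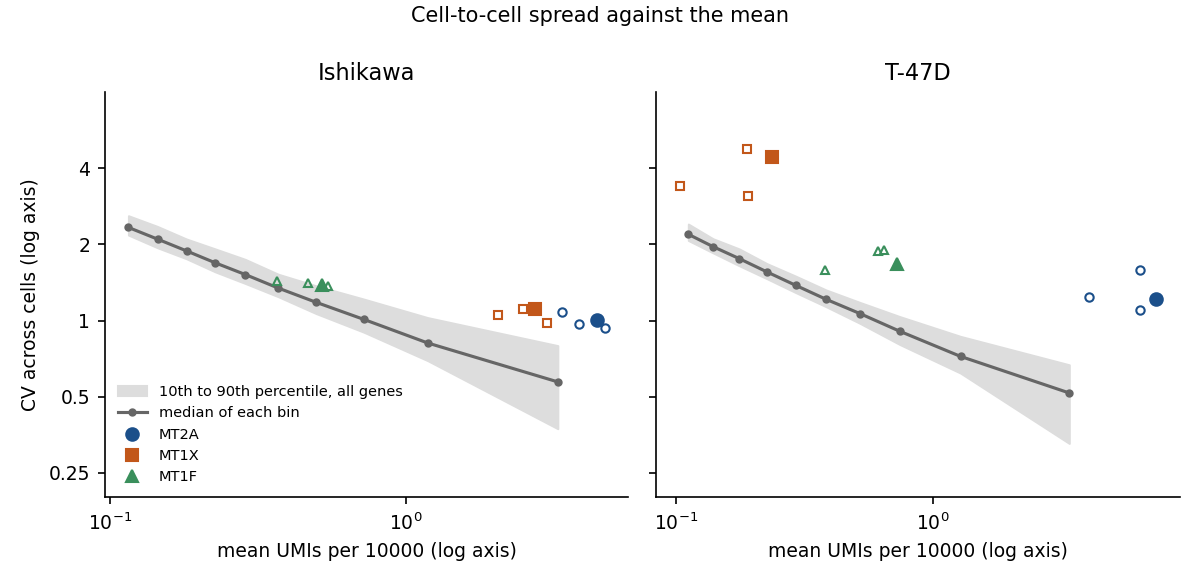
CV across cells against mean UMIs in 10000 (both log axes) in Ishikawa (left) and T-47D (right); the line and band are the median and the 10th to 90th percentile of all genes in 10 bins by mean with vehicle, filled symbols the members with vehicle, and open symbols the members at 2, 4 and 8 h. Of the filled symbols, MT1X in T-47D, with a CV of 4.43, lies farthest above the band, and MT1F in Ishikawa, with a CV of 1.38, lies nearest to the band. The open symbol of MT1F in Ishikawa at 8 h, with a CV of 1.43, lies within the band.

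A few T-47D cells carried much of the MT1X. The top 1% of cells by MT1X held 32.5%, 25.1%, 33.7% and 31.03% of its UMIs at 0, 2, 4 and 8 h, against 5.92 to 6.73% in Ishikawa. With vehicle, 16 of 1525 T-47D cells held 272 of 838 MT1X UMIs, and the highest single cell had 68 MT1X, 31 MT1F and 142 MT2A UMIs in a total of 25238. For MT2A in T-47D the top 1% held 9.63%, 8.27%, 12.1% and 9.52%. One cell at 4 h had 753 MT2A UMIs, 2.67% of all its UMIs, with 37 of MT1X and 9 of MT1F, and without it the 4 h level of MT2A was 635 in place of 660 CPM. Capping the cell values at the 99th percentile of the line left the 8 h change of MT1X at -0.86.

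Members tended to be high in the same cells, except for MT1F with MT1X in T-47D at 8 h. Spearman's rho between members was taken across the thinned cells of each culture, and is a description of cells that share a culture, a library and a depth. MT1X and MT2A had a rho of 0.50, 0.42, 0.42 and 0.40 in Ishikawa at 0, 2, 4 and 8 h (759, 1443, 879 and 1442 cells), while the values were 0.25, 0.24, 0.25 and 0.12 in T-47D (1525, 1207, 1341 and 553 cells). MT1F and MT2A had 0.30, 0.23, 0.26 and 0.19 in Ishikawa, and 0.37, 0.29, 0.30 and 0.18 across the T-47D cultures. MT1F and MT1X had 0.31, 0.28, 0.26 and 0.20 in Ishikawa, while T-47D gave 0.13, 0.10, 0.13 and -0.0086. Every pair was at its lowest at 8 h, which was also the time of the lowest levels. The part of the lower counts in this was not tested.

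For scale, the median rho over all pairs of the 2749 Ishikawa genes of at least 50 CPM was between 0.010 and 0.016 in the 4 cultures, with a 99th percentile of 0.14 to 0.18. In T-47D, over 2656 genes, it was between 0.0065 and 0.0073, with a 99th percentile of 0.15 to 0.16. The median of the 3 member pairs was 0.31, 0.28, 0.26 and 0.20 in Ishikawa, against 0.25, 0.24, 0.25 and 0.12 for T-47D. In T-47D the 8 h median, and MT1F with MT1X at every time, lay below the 99th percentile of the same culture. MT1X in T-47D, at 25.3 CPM with vehicle, was under the minimum of 50 CPM and is set against genes of higher level. In all 4 Ishikawa cultures, 0 of 2746 other genes had a higher rho with MT2A than MT1X had, the nearest with vehicle being PTMA at 0.39. In T-47D the gene closest to MT2A was MT1F at 0, 2 and 4 h, above all 2654 others, while at 8 h 45 other genes were closer. MT1F in Ishikawa stood lower, with 28, 8, 6 and 72 other genes closer to MT2A at 0, 2, 4 and 8 h. For MT1X in T-47D 1, 3, 3 and 190 other genes were closer.

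T-47D cells with several MT1X UMIs held more MT2A than the others. With vehicle, 30 cells with at least 3 thinned MT1X UMIs had a median of 26 MT2A UMIs (25th to 75th percentile 12.2 to 44.8), 169 cells with 1 or 2 had 8 (4 to 17) and 1326 cells with none had 4 (2 to 8). MT1F was found in 56.7%, 49.1% and 36.0% of these cells. In Ishikawa with vehicle the median MT2A was 6 in 296 cells with at least 3 MT1X UMIs, 3 in 269 cells with 1 or 2 and 1 in 194 cells with none. Both lines showed the same order of the 3 classes.

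The genes whose UMIs most followed the summed members were named by a fixed rule, the 5 highest and 5 lowest rho with vehicle. In Ishikawa the highest were PTMA (0.45), a chromatin-associated acidic protein, the ribosomal protein genes RPL7A (0.44), RPL3 (0.43) and RPS9 (0.43), and TMSB10 (0.42), which binds actin monomers. All 5 stayed positive at 2, 4 and 8 h, PTMA at 0.32, 0.37 and 0.38. The lowest were KMT2E-AS1 (-0.37), the stress-induced factor ATF3 (-0.36), THUMPD3-AS1 (-0.35), ANKRD1 (-0.31) and YTHDC1 (-0.28). ANKRD1 is a target of the Hippo pathway and YTHDC1 a nuclear reader of methylated RNA. KMT2E-AS1 and THUMPD3-AS1 are annotated antisense RNAs whose reads were not checked against those of their partners.

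In T-47D the highest were JPT1 (0.27), RAN (0.22), a GTPase of nuclear transport, H2AFZ (0.22), a histone variant, TUBA1B (0.21), an alpha tubulin, and RPL36AL (0.20). The lowest were MT-CO1 (-0.21) and MT-ND3 (-0.18), encoded by mitochondrial DNA, MGP (-0.20), a matrix protein, the nuclear RNA MALAT1 (-0.20) and PRLR (-0.18), the prolactin receptor. No gene was among those named in both lines. In the same T-47D cells the summed members had a rho of -0.19, -0.25, -0.21 and -0.28 with the mitochondrial share of UMIs, against -0.016, 0.022, -0.028 and -0.030 in Ishikawa. With the total UMIs of a T-47D cell the rho was 0.10, 0.090, 0.11 and 0.14.

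Classes of cells within a culture differed in level. In T-47D with vehicle the summed members were at 1104 CPM in the lowest tertile of cells by mitochondrial share (503 cells), 846 in the middle (475) and 638 in the highest (547), and at 1065 CPM in the 497 cells with a UMI of the proliferation genes TOP2A or MKI67 against 742 in the 1028 cells without. The 8 h drop was present within each of these classes. It was 1.56-fold, 2.05-fold and 2.11-fold in the 3 tertiles, 1.90-fold in cells with a proliferation UMI and 1.91-fold in those without. The share of cells with such a UMI was 32.6% with vehicle and 41.6% at 8 h. By gene, MT1X in the highest mitochondrial tertile was the exception, with 9.94 CPM at 0 h and 9.66 at 8 h (ratio 0.972, 0.659 to 1.41).

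In Ishikawa the level was lower in cells with a higher share of GFP UMIs. The feature list of this library held GFP and tdTomato, whose source is not given in the sources used here, and the rho of the summed members with the GFP share of a cell was -0.31, -0.18, -0.26 and -0.24 at 0, 2, 4 and 8 h. With vehicle the summed members were at 915 CPM in 446 cells under 1% GFP, 685 in 233 cells between, and 235 in 97 cells over 10%. GFP UMIs are part of the total of a cell, and with the reporters left out of the total the outer values were 918 and 334 CPM. At 8 h the summed members were 1.43-fold lower in cells under 1% GFP and 1.17-fold lower in those between. In cells over 10% they were higher, at 306 CPM (1.16 to 1.46 times vehicle), from 163 cells. MT2A was at 526 and 365 CPM at 0 and 8 h under 1% GFP and at 144 and 203 CPM over 10%. For the other members over 10% GFP the 8 h ratio was 1.08 (0.887 to 1.33) for MT1X and 1.53 (0.860 to 2.84) for MT1F, and both intervals included 1.

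The higher 2 h values in Ishikawa were not shared by all of these classes. The ratio of the summed members at 2 h to vehicle was 0.952 in cells under 1% GFP, 1.16 in those between and 1.77 in those over 10%. It was 0.993 in cells with a TOP2A or MKI67 UMI and 1.26 in those without. The part of the reporter in these values was not tested. The plot of the summed level by class shows that the 8 h value was below vehicle in every class drawn but the cells over 10% GFP.

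**Figure D5:**
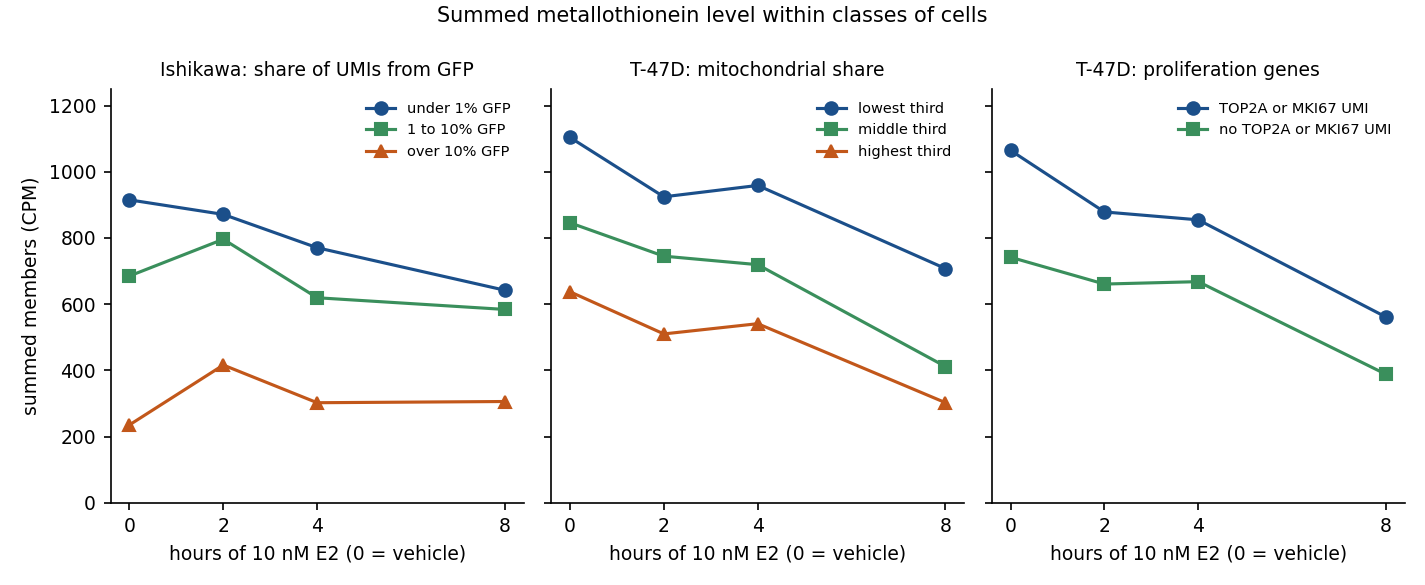
Summed CPM of the members against hours of 10 nM E2 in classes of cells, by the share of UMIs from GFP in Ishikawa (left), by tertile of mitochondrial share in T-47D (middle) and by presence of a TOP2A or MKI67 UMI in T-47D (right); each point pools the cells of 1 culture. The T-47D classes all went down to 8 h, from 638 to 303 CPM in the highest mitochondrial tertile, while Ishikawa cells over 10% GFP went from 235 to 306 CPM.

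The other 7 metallothionein genes in the feature lists were low, and none passed 10 CPM. MT1M, another gene of the cluster, was found only in T-47D, at 9.07, 9.09, 7.82 and 5.18 CPM at 0, 2, 4 and 8 h, a ratio of 0.571 at 8 h (0.432 to 0.747), and had 0 UMIs over all Ishikawa barcodes. Its rho with MT2A was 0.20, 0.19, 0.21 and 0.13. MT3, known from brain, was found in Ishikawa at 5.42, 5.52, 3.20 and 3.74 CPM, a ratio of 0.690 at 8 h (0.516 to 0.926), and had 2 UMIs in T-47D. MT1B had 4 UMIs in Ishikawa over the 4 cultures and 0 in T-47D. MT1A, MT1H, MT1HL1 and MT4 had 0 UMIs in the kept cells of both lines. MT1L was not analysed here.

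Of the metal pathway around the family, MTF1 itself was low in both lines. It had 16.01, 15.5, 17.8 and 16.6 CPM in Ishikawa, against 7.90, 8.37, 7.96 and 8.97 CPM for T-47D, all within counting error of vehicle. SLC30A1, the plasma membrane zinc exporter and a known MTF1 target, had 13.9 CPM (12.1 to 15.9) in Ishikawa with vehicle and 23.2 at 2 h (ratio 1.67, 1.43 to 1.95), a log2 change of 0.70 that passed the fold rule, then 18.0 and 19.6 CPM. MT2A and MT1X were 1.04-fold and 1.09-fold above vehicle at the same time. In T-47D SLC30A1 had 6.93, 8.07, 7.56 and 6.42 CPM, below the minimum for the fold rule.

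Over the zinc handling list at 8 h, 15 of 25 genes passed 10 CPM in Ishikawa, 0 passed the fold rule, and the median was 0.08 against 0.0015 for all genes, from SLC39A1 (-0.11) to SLC30A1 (0.46). In T-47D, 13 of 25 passed the minimum and 1 was higher, SLC39A4, a zinc importer, at 0.76 (30.4 to 52.1 CPM), and the lowest was SLC39A1 at -0.23, with a median of -0.011 against 0.0063. Of the 10 copper handling genes, 6 passed the minimum in Ishikawa, 7 did so in T-47D and 0 changed in either line, with medians of -0.053 and 0.010. They ran from CCS, the copper chaperone of superoxide dismutase, at -0.12 to SCO1 at 0.07 in Ishikawa, and from SLC31A2 at -0.40 to COX17 at 0.13 in T-47D. So neither list held another gene that dropped past the rule at 8 h.

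The oxidative stress list had 12 of 14 genes past the minimum in Ishikawa, with 0 past the fold rule and a median of -0.042, from NQO1 (-0.28) to GCLC (0.13). In T-47D it had 9, with 1 lower and 1 higher and a median of -0.083. The lower was TXNRD1, thioredoxin reductase, at -0.78 (195 to 113 CPM), near the values of the metallothioneins, and the higher was OSGIN1 at 0.99 (13.4 to 27.8 CPM). Of 8 glucocorticoid response genes, 2 passed the minimum in Ishikawa, SGK1 at -0.11 and FKBP5 at 0.24, and 1 in T-47D, FKBP5 at 0.31, and none passed the fold rule. The heat shock list had 8 of 9 genes past the minimum in each line. In Ishikawa 1 was lower, the inducible chaperone HSPA6 at -0.83, the highest was HSPB1 at 0.29 and the median 0.10. In T-47D 0 passed the rule, from HSPA1B (-0.29) to HSPH1 (0.26), with a median of 0.07.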

How the data were processed

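Single-cell gene expression was measured in 2 cell lines, each with 4 time points tagged and mixed into 1 library. Per the labels, the authors made the UMI counts with Cell Ranger 3.1.0 on hg38, and the deposited count matrices are not normalized. The MULTI-seq tag libraries served only through the deposited calls of each cell's time point. Barcodes called as doublets (1906 in Ishikawa, 1442 in T-47D) or without a call (4002 and 12120) were left out, and no other doublet caller was run.

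Cell limits followed the methods of the publication. An Ishikawa cell needed between 8500 and 35000 UMIs, between 2700 and 6000 genes, and a mitochondrial share below 7% (4613 of 9077 called cells). A T-47D cell needed between 7500 and 40000 UMIs, between 1500 and 6000 genes, and a share below 20% (4626 of 4626). UMIs were summed by line and time and divided by the total to give CPM. Genes averaging 10 CPM or more across a line's 4 pools entered the fold rule of 1.5 on log2(CPM + 1), which understates the change of low genes. With 1 culture per group there was no test. Intervals are exact Poisson, conditional binomial (ratios) or Clopper-Pearson (shares) at 95%. CV residuals came from a spline fit (mgcv 1.9.3 in R 4.3.3) of log2(CV + 1) on log10 mean in 10 bins. Shares and rho used cells thinned to 10000 UMIs. Other work was done in Python 3.11.15 with scipy 1.17.1. The fold rule and the noise fit were also run on simulated counts. These held no variation between cultures and do not speak to the limit of 1 culture per group. UMIs were captured at the 3' end and were not divided by length.

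The members, the gene lists and the tests were chosen with earlier results of these data known. Genes named besides the 5 members were the other metallothioneins, MTF1, SLC30A1, the highest and lowest gene of each list at 8 h, and the 5 highest and 5 lowest by rho with the summed members. TOP2A, MKI67 and the marker lists served as checks, and COL1A1 was named after its value was seen. Classes of cells by mitochondrial share, with over 10% GFP and with a TOP2A or MKI67 UMI were chosen after seeing the data. Alternatives included edgeR 4.0.16 TMM scaling. Sequences and positions were from RefSeq on GRCh38.p14, matched by symbol.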

Additional observations from a re-analysis of the deposited data

Results flagged for a closer look

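For 2 genes the lines moved in opposite directions at 2 h, with ratios to vehicle that excluded 1 in both. MT1X changed by 0.13 on the log2 scale in Ishikawa and by -0.25 in T-47D, and MT2A by 0.062 in Ishikawa and by -0.21 in T-47D. Each value sets 1 culture against 1 culture, and how far the lines differ was not tested. In Ishikawa cells under 1% GFP the 2 h change of MT2A was -0.11 and that of MT1X was 0.0075, where the ratio to vehicle had an interval of 0.962 to 1.05. With cell values capped at the 99th percentile the 2 h change of MT1X in T-47D was -0.055.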

How the results depend on the processing

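The drop of MT1F, MT1X and MT2A at 8 h in T-47D kept its direction under all 8 other settings of scaling, cells and pseudocount, from -0.74 for MT1F in cells without a TOP2A or MKI67 UMI to -1.29 for MT1X in thinned cells, and at a fold of 2 the count was 1 in place of 3. At a lower limit of 0.32 on the log2 scale the count was 3 in Ishikawa at 8 h and 1 in T-47D at 4 h, in place of 0 in both, with 4.21% and 2.76% of all genes lower by that limit. In Ishikawa cells under 1% GFP it was 1 at 8 h, and of the members between the lines 1 in place of 2, as at a fold of 2. Of alternatives added after seeing the data, Ishikawa cells over 10% GFP gave 3 at 2 h and 1 at 4 h, in place of 0. Those pools were small, with 97, 126 and 94 cells at 0, 2 and 4 h. The middle mitochondrial tertile and the cells with a TOP2A or MKI67 UMI gave 1 each for T-47D at 4 h. For these classes, for cells under 1% GFP and at a fold of 2, the share of all genes past the rule was not computed. The signs at 2 h in Ishikawa turned for MT1F (-0.18) and MT2A (-0.11) in cells under 1% GFP, and at 4 h for MT1F (0.03), MT1X (0.02) and MT2A (0.06) in cells without a TOP2A or MKI67 UMI. The causes were not tested.

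The median rho of the member pairs moved with depth. Without thinning it was 0.41, 0.34, 0.35 and 0.27 in Ishikawa at 0, 2, 4 and 8 h, while for T-47D it was 0.32 at 2 h, 0.31 at 4 h and 0.24 at 8 h. At 5000 UMIs it was 0.18, 0.16, 0.18 and 0.096 in Ishikawa and 0.18 in T-47D at 4 h. In cells without a TOP2A or MKI67 UMI it was 0.37 and 0.37 in Ishikawa at 0 and 2 h, while T-47D gave 0.20 at 0 h and 0.19 at 2 h. In Ishikawa cells under 1% GFP it was 0.14 at 8 h, and as Pearson's r T-47D gave 0.31 at 0 h and 0.32 at 4 h. It stayed above 0 in every culture under every alternative. The High class held 3 of 3 members in each line, except 2 of 3 in Ishikawa with every called cell and 2 of the 2 above the minimum in T-47D at 50 CPM. The alternative with every called cell could not differ in T-47D, where all called cells were kept, and no paired analysis was possible because each group was 1 culture.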

Other observations

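Barcodes that were not assigned to a time point held the same 3 genes. In Ishikawa the 4002 barcodes without a tag call had 427 CPM of MT2A, 291 of MT1X and 49.6 of MT1F, all within the range of the 4 cultures. In T-47D the 12120 barcodes without a call, with a median of 7024 UMIs, had 393 CPM of MT2A, 20.3 of MT1X and 32.9 of MT1F, where MT2A and MT1F were below each of the 4 cultures. Every called T-47D cell was within the cell limits, against 4613 of 9077 in Ishikawa. The barcodes without a call may thus not be alike between the lines. The 1442 T-47D barcodes called as doublets had 628, 22.4 and 58.5 CPM, and the 1906 of Ishikawa 372, 246 and 42.2 CPM.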
